A study of Mus musculus with 48 samples.

Results

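Transcripts of complement components and regulators were followed in hippocampal tissue (HPC) from 48 C57BL/6J males, each with its own Affymetrix array. The set comprised 7 genes: C1qa, C1qb, C1qc, C3, C4b, C3ar1 and Serping1. A gene was followed through the probe set, a group of short probes for 1 transcript, that the platform annotation gave to that gene alone. Where several probe sets met this rule, the one with the highest mean over all arrays was used. Of the 7 genes, 5 were measured in this way, out of 18193 genes with such a probe set in the whole series. C3 was not analysed here. C4b shared its probe set with C4a, so that probe set was described beside the measured genes and given to neither gene.

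Mice of the chronic intermittent ethanol (CIE) groups spent 16 h a day in ethanol vapor (10 to 13 mg/l air) on 4 days, followed by 7 days of abstinence, for 4 cycles. They were injected with 1.6 g/kg ethanol and 1 mmol/kg pyrazole, which slows the breakdown of ethanol. The control (Ctrl) mice breathed air and were injected with saline and the same dose of pyrazole, so pyrazole, the chambers and single housing were common to all animals. The last vapor session was followed by harvest at 0 h, 8 h, 72 h or 7 d, and every treatment had 6 mice per time, 24 CIE and 24 Ctrl in all. Hippocampal tissue mixes many cell types, and in such bulk tissue fewer cells of a type and less RNA per cell cannot be told apart.

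Complement is a cascade of proteins that tags targets for removal. C1q is assembled from the chains encoded by C1qa, C1qb and C1qc, which in the brain are made largely by microglia, the resident macrophages. Bound C1q switches on the proteases C1r and C1s, and C1s cleaves C4 and C2, which leads to the cleavage of C3. The fragment C3a acts through the receptor encoded by C3ar1, and Serping1 encodes the C1 inhibitor, the brake on C1r and C1s. In the mouse brain, C1q and C3 are known for marking synapses that microglia remove during development.

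Array medians lay between 6.601 and 6.627 log2 units, and correlations between arrays over all probe sets lay between 0.974 and 0.998. For 10 markers found in hippocampal neurons, means over the 48 arrays lay between 9.03 (Tubb3) and 13.3 (Snap25 and Syt1). The dentate granule cell marker Prox1 averaged 9.06. No other brain region was compared, so these levels show neuronal signal and do not test the labelled region. Microglia were represented by 17 measured markers with means between 7.56 (Cd68) and 12.3 (Csf1r and Ctss). Exactly equal values placed 47 arrays in 6 sets, called hybridization sets here. No label gives the batch, so this reading of the sets is inferred. Each set held 1 mouse of every group, except that 1 set lacked a Ctrl mouse of 0 h. Ctrl mouse 2 of 0 h lay in no set.

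The C1q chain genes lie on chromosome 4, C3ar1 on chromosome 6 and Serping1 on chromosome 2. The 250 bases before the start of C1qb and of C1qc are shown because both genes varied together from mouse to mouse, as described further on. They come from the RefSeq promoter table, build GRCm38.p6, and are written 5′ to 3′ on the gene's own strand, which is the minus strand for both. Capitals mark the letters AGGAAGT, a core bound by the myeloid factor PU.1 and other ETS factors, found here on the opposite strand. The window of C1qb is chr4:136886201-136886450 and that of C1qc is chr4:136892915-136893164.
C1qb: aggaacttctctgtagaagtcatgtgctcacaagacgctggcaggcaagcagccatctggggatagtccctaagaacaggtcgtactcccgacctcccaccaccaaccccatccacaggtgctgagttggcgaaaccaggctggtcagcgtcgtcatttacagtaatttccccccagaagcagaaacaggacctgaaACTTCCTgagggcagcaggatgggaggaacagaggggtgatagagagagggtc
C1qc: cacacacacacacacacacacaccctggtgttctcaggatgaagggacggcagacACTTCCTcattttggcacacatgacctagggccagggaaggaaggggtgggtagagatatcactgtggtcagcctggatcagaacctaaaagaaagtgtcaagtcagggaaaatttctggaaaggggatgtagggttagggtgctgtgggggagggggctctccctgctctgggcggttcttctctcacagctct

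The marked letters stand at bases -53 to -47 before the C1qb start and at bases -195 to -189 before the C1qc start. Over 32851 promoter windows of the same length, 7.69% held these letters on either strand. C3ar1 had a window without them, and C1qa and Serping1 had no window to search. The interferon-response core letters GAAANNGAA (7.13% of all windows) and TTCNNNGAA (7.02%) were searched on both strands and were in none of the windows of C1qb, C1qc and C3ar1. The letters GAA are common to AGGAAGT and both other motifs, so matches can overlap in principle. A match describes letters only and says nothing about binding in these mice.

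**Figure D1:**
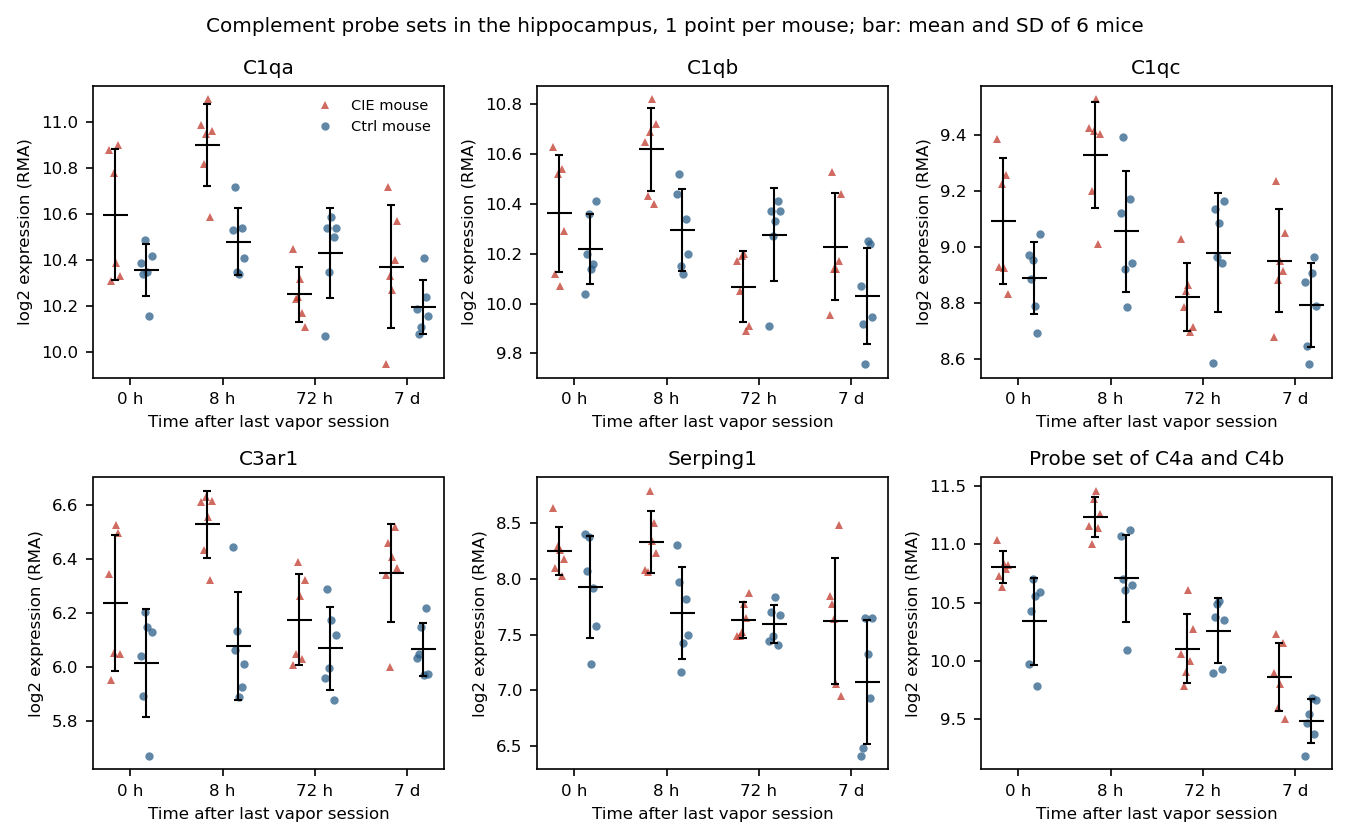
Log2 expression of the 5 measured complement genes and of the probe set annotated to both C4a and C4b, 1 point per mouse (triangles CIE, circles Ctrl, CIE left at each time) against time after the last vapor session, with the mean and SD of 6 mice. CIE mice at 8 h had the highest group mean in every panel, for C1qa 10.9 against 10.48 in Ctrl mice.

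The first question was whether CIE changed expression at each time. At 8 h, CIE mice had the higher mean for all 5 measured genes, and 1 of 5, C3ar1, rose at an adjusted p of 0.01 or less, the threshold for a call throughout. Among all genes, 2.29% were called at 8 h. No gene of the set was called at 0 h (0 of 5, against 1.64% of all genes), at 72 h (0 of 5, against 0.0055%) or at 7 d (0 of 5, against 1.03%). In limma's test without adjustment, 2 of 5 had a p under 0.05 at 0 h, 0 at 72 h and 2 at 7 d. The share of all genes at this unadjusted cut was not worked out. Unadjusted counts, here and further on, are therefore not set against a background. The median log2 change over the 5 genes was 0.221 at 0 h (0.0407 over all genes), 0.42 at 8 h (0.00569), -0.158 at 72 h (0.0133) and 0.197 at 7 d (0.0276). Of the 5 changes, all 5 were positive at 0 h, 8 h and 7 d, and 2 at 72 h.

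Among the initiating components, C1qa encodes the A chain of C1q. At 8 h, C1qa measured 10.59 (lowest), 10.96 (median) and 11.1 (highest) log2 units in CIE mice, against 10.34, 10.47 and 10.72 in Ctrl mice. CIE mice were high, and the groups overlapped only through CIE mouse 41, which lay below Ctrl mouse 8. The change was 0.42 ± 0.106 (SE), a 1.34-fold difference, with an adjusted p of 0.0118 from the limma fit over all probe sets. It narrowly missed the call, and the CIE animal had the higher value in 35 of the 36 possible CIE and Ctrl pairs. C1qa was called at 8 h by limma without CIE mouse 41 (change of 0.48, adjusted p of 0.00474) or without Ctrl mouse 8 (0.47, adjusted p of 0.00865), and over all 12 fits without 1 mouse its adjusted p reached 0.0411 at most.

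At 0 h, C1qa measured 10.31, 10.59 and 10.9 in CIE mice (lowest, median, highest), against 10.16, 10.37 and 10.49 in Ctrl mice. CIE mice were split, with 3 of them inside the range of the Ctrl mice and 3 above it. The change was 0.24 ± 0.106 with an adjusted p of 0.195. At 72 h CIE mice measured 10.11, 10.24 and 10.45, against 10.07, 10.52 and 10.59 in Ctrl mice. The ranges overlapped widely, and the change of -0.18 ± 0.106 had an adjusted p of 0.641. By 7 d, the values were 9.948, 10.36 and 10.72 in CIE mice, against 10.08, 10.18 and 10.41 in Ctrl mice. CIE mice then spread beyond both ends of the Ctrl range, and the change was 0.17 ± 0.106 with an adjusted p of 0.374.

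C1qb, the B chain, measured 10.4, 10.67 and 10.82 in CIE mice at 8 h (lowest, median, highest), against 10.12, 10.27 and 10.52 in Ctrl mice. The upper part of the Ctrl range overlapped the lower part of the CIE range. The change was 0.32 ± 0.104 with an adjusted p of 0.0565. For C1qc, the C chain, CIE mice measured 9.009, 9.408 and 9.527 at 8 h, against 8.786, 9.031 and 9.392 in Ctrl mice. CIE mice lay above the Ctrl range in 4 of 6 cases, and CIE mice 21 and 41 lay inside it. The change was 0.27 ± 0.103 with an adjusted p of 0.121.

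At the other times the changes of C1qb and C1qc had the same signs as those of C1qa. C1qb differed by 0.15 at 0 h, by -0.21 at 72 h and by 0.20 at 7 d, with adjusted p-values of 0.478, 0.536 and 0.28. C1qc differed by 0.20 at 0 h, by -0.16 at 72 h and by 0.16 at 7 d, with adjusted p-values of 0.273, 0.69 and 0.413. At 72 h the CIE mouse was the higher one in 7 of 36 pairs for C1qa, in 5 for C1qb and in 8 for C1qc. The other 2 probe sets of C1qb, both of a type whose probes can match related transcripts, had changes of 0.25 and 0.19 at 8 h and of -0.19 and -0.18 at 72 h, and were not called at any time.

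C3ar1, the receptor for C3a, was the member called at 8 h. CIE mice measured 6.323, 6.585 and 6.631 log2 units (lowest, median, highest), against 5.888, 6.036 and 6.444 in Ctrl mice. All CIE mice but mice 21 and 41 lay above the whole Ctrl range, and only Ctrl mouse 4 reached into the CIE range. The rise was 0.45 ± 0.101 on the log2 scale, or 1.37-fold, with an adjusted p of 0.00387. The CIE mouse was higher in 34 of 36 pairs. Nevertheless, the call was lost in 7 of 12 fits that left out 1 mouse (CIE mice 15, 23, 25 or 69, or Ctrl mice 42, 66 or 79). Over all 12 fits the change stayed between 0.41 and 0.52 and the adjusted p reached 0.015 at most.

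At the other times C3ar1 was not called. At 0 h CIE mice measured 5.952, 6.196 and 6.527, against 5.67, 6.087 and 6.205 in Ctrl mice, and the change was 0.22 ± 0.101 (adjusted p of 0.206). At 72 h CIE mice measured 6.006, 6.155 and 6.388, against 5.877, 6.056 and 6.288 in Ctrl mice, and the change was 0.11 ± 0.101 (adjusted p of 0.811). At 7 d CIE mice measured 6, 6.387 and 6.519, against 5.971, 6.041 and 6.218 in Ctrl mice, and the change was 0.28 ± 0.101 (adjusted p of 0.0844). At 7 d every CIE mouse except mouse 27 lay above the Ctrl range. All 4 CIE group means of C3ar1 were above all 4 Ctrl group means, with 6.529 at 8 h the highest and 6.015 in Ctrl mice at 0 h the lowest.

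C3ar1 had 2 further probe sets. The first differed by 0.37 ± 0.0953 at 8 h (adjusted p of 0.015) and by 0.33 ± 0.0953 at 7 d (adjusted p of 0.0295), and the second by 0.22 ± 0.0932 at 8 h (adjusted p of 0.171). Both were positive at 8 h, and neither was called at any single time. The mean signal of the described probe set, 6.19, lay below the median of all probe set means, 6.62, and it was left out by the filter on dim probe sets.

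Serping1, the C1 inhibitor, had the widest spread between mice among the measured genes. Its pooled SD within groups was 0.385, larger than in 97.1% of all genes, while those of C1qa, C1qb, C1qc and C3ar1 lay between 0.178 and 0.188 (median over all genes 0.134). At 8 h CIE mice measured 8.061, 8.285 and 8.794 (lowest, median, highest), against 7.169, 7.661 and 8.303 in Ctrl mice. The difference was 0.64 ± 0.214, or 1.55-fold, and its adjusted p was 0.073. CIE mice were high, and Ctrl mouse 4 stood inside their range.

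At 7 d CIE mice measured 6.949, 7.711 and 8.489 for Serping1, against 6.413, 7.132 and 7.651 in Ctrl mice. The difference was 0.55 ± 0.214 with an adjusted p of 0.118, and the SD between mice was 0.566 in CIE mice and 0.554 in Ctrl mice. At 0 h the values were 8.029, 8.223 and 8.639 in CIE mice, against 7.237, 7.994 and 8.404 in Ctrl mice, and the difference of 0.32 had an adjusted p of 0.441. The groups were closest at 72 h, where CIE mice measured 7.489, 7.588 and 7.872, against 7.412, 7.583 and 7.843 in Ctrl mice. That difference was 0.04 with an adjusted p of 0.979 and a 95% interval from -0.392 to 0.471. The interval uses the spread pooled over all groups, with an SE of 0.214. With the arrays of 72 h alone the SE was 0.0886.

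The next protein of the cascade, C4, was not itself measured. The probe set annotated to both C4a and C4b measured RNA, which could not be divided between these genes. At 0 h it measured 10.63, 10.81 and 11.04 in CIE mice (lowest, median, highest), against 9.781, 10.5 and 10.7 in Ctrl mice. The groups overlapped through 1 pair of mice, and the difference was 0.47 ± 0.154 with an adjusted p of 0.061. At 8 h it measured 11, 11.21 and 11.46 in CIE mice, against 10.09, 10.67 and 11.12 in Ctrl mice, a difference of 0.53 ± 0.154 with an adjusted p of 0.0347. Most CIE mice lay above the Ctrl range, yet neither difference was called. The differences at 72 h and 7 d were -0.16 (adjusted p of 0.829) and 0.38 (adjusted p of 0.139).

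**Figure D2:**
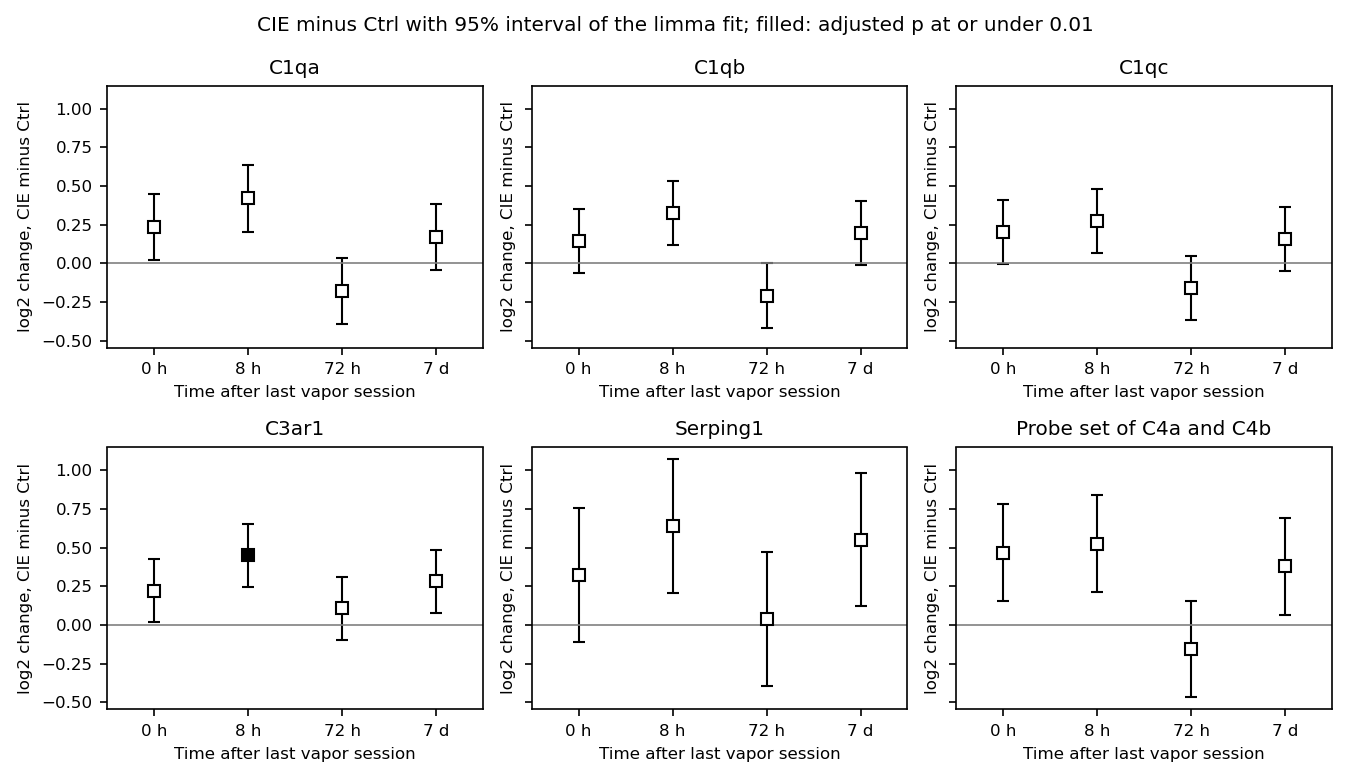
CIE minus Ctrl log2 change (square) with its 95% interval from the limma fit over 48 arrays, against time after the last vapor session, 1 panel per probe set, filled where the adjusted p was at or under 0.01. The only filled square is C3ar1 at 8 h, at 0.45, and the C1q genes lie below 0 at 72 h.

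No measured gene had all 6 CIE mice above all 6 Ctrl mice at any time. Such a separation held for 1.28% of all genes at 0 h and 1.87% at 8 h, then for 0.731% at 72 h and 1.13% at 7 d. C1qa and C3ar1 came closest at 8 h, with the overlaps described above.

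The moderated F, which asks whether any of the 4 CIE minus Ctrl changes differs from 0, called 2 of the 5 genes, against 6.23% of all genes. These were C1qa (adjusted p of 0.00545) and C3ar1 (adjusted p of 0.00115). C1qb had an adjusted p of 0.0235, Serping1 of 0.0341 and C1qc of 0.0556. The F of C1qa was not called in 7 of 48 fits without 1 mouse (CIE mice 15, 23, 25 or 69 of 8 h, Ctrl mice 32, 42 or 79 of 8 h), with an adjusted p of 0.0136 at most. That of C1qb was called without Ctrl mouse 6 of 72 h, with an adjusted p of 0.00806. The probe set of C4a and C4b was also called by the F, with an adjusted p of 0.00391.

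Averaged over the 4 times, CIE mice were higher for 5 of 5 genes, and 2 of 5 were called, against 7.9% of all genes. C3ar1 was higher by 0.27 ± 0.0504 on average with an adjusted p of 0.00014, and Serping1 by 0.39 ± 0.107 with an adjusted p of 0.00804. One further probe set of C3ar1 was called on average (0.20, adjusted p of 0.0023), and the other was not (0.13, adjusted p of 0.0428). C1qa was higher by 0.16 ± 0.0531 (adjusted p of 0.0257), C1qc by 0.12 ± 0.0517 (adjusted p of 0.106) and C1qb by 0.11 ± 0.0518 (adjusted p of 0.125). The shared probe set of C4a and C4b averaged 0.30 ± 0.0772 with an adjusted p of 0.00375.

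The call of Serping1 on average depended on single mice. It was lost in 25 of 48 fits without 1 mouse, with adjusted p-values up to 0.0145. Those mice were CIE 11, 43 and 57 of 0 h, 23, 25 and 41 of 8 h, 35, 61 and 71 of 72 h and 7, 9, 27 and 45 of 7 d, and Ctrl 38, 56 and 64 of 0 h, 32, 42 and 79 of 8 h, 6, 24 and 52 of 72 h and 18, 22 and 70 of 7 d. The change itself stayed between 0.34 and 0.42. C1qa was called on average without CIE mouse 7 of 7 d, with an adjusted p of 0.00769. C3ar1 kept its call in all 48 fits, with an adjusted p of 0.000294 at most.

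Within hybridization sets, each CIE mouse was set beside the Ctrl mouse of its own set. At 8 h the CIE mouse was higher in 6 of 6 sets for C3ar1, by 0.169 to 0.668, and in 6 of 6 for C1qa, by 0.0451 to 0.763. For Serping1 it was higher in 5 of 6 sets at 8 h, with differences from -0.218 to 1.63. At 7 d the differences of Serping1 ran from -0.702 to 1.55 with 3 of 6 positive. With the sets as a block and the array outside them left out, no gene was called at 8 h, and C3ar1 had the same change of 0.45 with an adjusted p of 0.0115. In that fit the average of Serping1 was 0.41 with an adjusted p of 0.0108, that of the C4a and C4b probe set was 0.29 with an adjusted p of 0.0144, and the F had an adjusted p of 0.0183 for C1qa and of 0.0202 for the C4a and C4b probe set. None of these passed the threshold with the block.

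**Figure D3:**
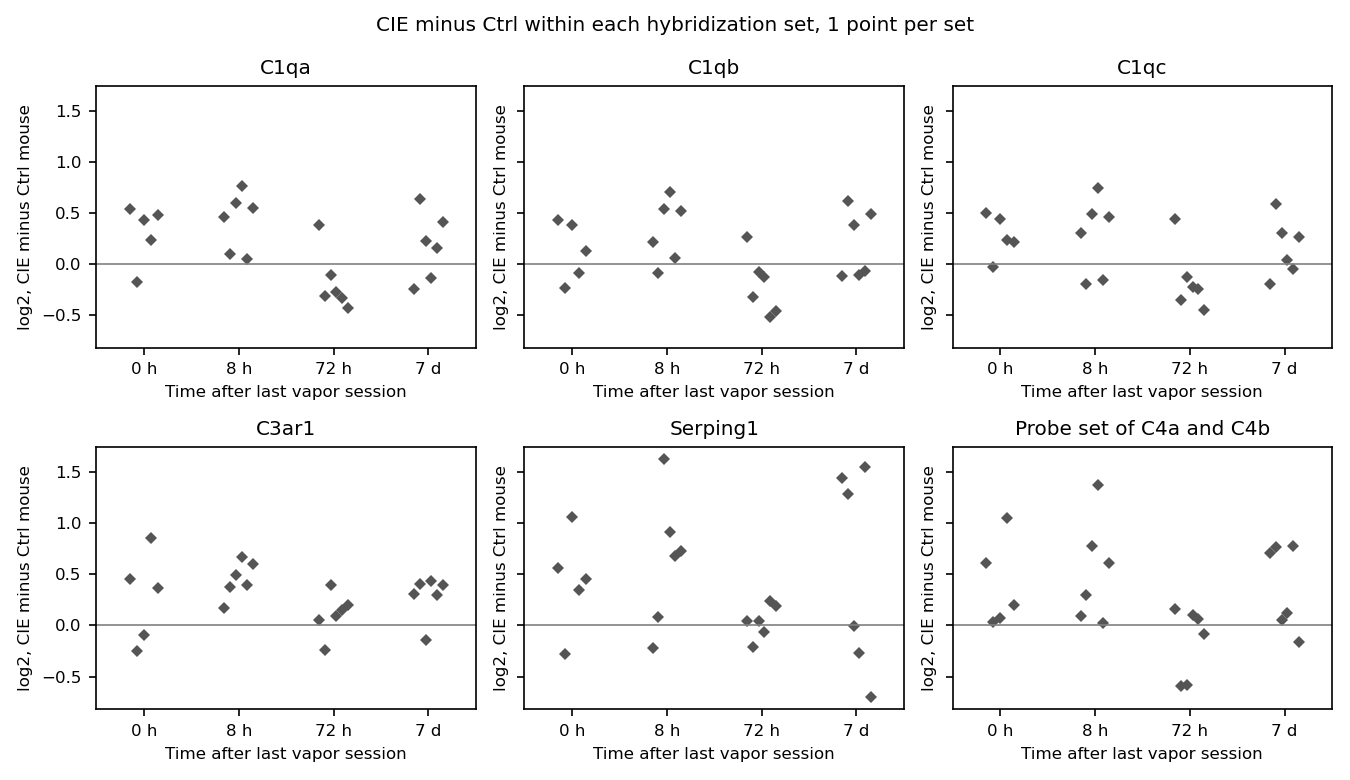
Log2 difference between the CIE and the Ctrl mouse of the same hybridization set, 1 point per set (5 sets at 0 h, 6 at the other times), against time after the last vapor session. All 6 points lie above 0 at 8 h for C1qa, C3ar1 and the C4a and C4b probe set, and 1 of 6 does so at 72 h for each C1q gene.

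The second question was whether the CIE effect itself differed between times. From 8 h to 72 h the effect on C1qa changed by -0.60 ± 0.15, with an unadjusted p of 0.000256 and an adjusted p of 0.08. For C1qb that change was -0.53 (adjusted p of 0.124), for C1qc -0.43 (adjusted p of 0.292), for Serping1 -0.60 (adjusted p of 0.594) and for C3ar1 -0.34 (adjusted p of 0.453). None of the 5 genes was called for it, against 0.011% of all genes. The change of the effect was negative in all 5 and passed limma's test in none, and 4 of them (C1qa, C1qb, C1qc and C3ar1) had an unadjusted p under 0.05.

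The other differences of the effect were also not called for any of the 5 genes by limma. Among all genes, 0.033% were called for 8 h minus 0 h, 0% for 7 d minus 72 h and 0.066% for 7 d minus 0 h. Between 72 h and 7 d the effect changed by 0.35 for C1qa, 0.41 for C1qb, 0.32 for C1qc, 0.18 for C3ar1 and 0.51 for Serping1, with adjusted p-values from 0.386 to 0.815. An unadjusted p under 0.05 was reached by 3 of the 5 genes for 7 d minus 72 h, and by 0 for 8 h minus 0 h and for 7 d minus 0 h. From 0 h to 7 d the effect changed by -0.06 for C1qa, 0.05 for C1qb and -0.04 for C1qc.

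The third comparison followed the Ctrl mice over time, which gives the background of the time course. None of the 5 genes was called in Ctrl mice at 8 h, 72 h or 7 d against Ctrl mice at 0 h, while 0.456%, 0.445% and 0.264% of all genes were called at these times. Serping1 was the 1 gene with an unadjusted p under 0.05 by limma, at 7 d. It stood lowest in Ctrl mice at 7 d, at 7.077 ± 0.554 (SD, n = 6), against 7.93 ± 0.458 in Ctrl mice at 0 h, a difference of -0.85 ± 0.214 (SE) with an adjusted p of 0.0415. Ctrl mice at 7 d were also low in the summed signal of choroid plexus markers, as given further on. The part of attached tissue in the fall of Serping1 was not tested. The probe set of C4a and C4b did change: Ctrl mice of 7 d measured 9.184, 9.501 and 9.684 (lowest, median, highest), against 9.781, 10.5 and 10.7 in Ctrl mice of 0 h. These groups did not overlap, as held in this direction for 0.341% of all genes, and the probe set fell by 0.86 ± 0.154 on the log2 scale, or 1.81-fold, with an adjusted p of 0.00171. With the sets as a block its change was -0.93 (adjusted p of 0.00531). The C1q genes and C3ar1 differed by between -0.19 and 0.05 in the same comparison.

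The order of the 8 group means was the same in the 3 C1q genes. For C1qa it ran from 10.9 in CIE mice at 8 h through 10.6 in CIE mice at 0 h, 10.48 in Ctrl mice at 8 h, 10.43 in Ctrl mice at 72 h, 10.37 in CIE mice at 7 d, 10.36 in Ctrl mice at 0 h and 10.25 in CIE mice at 72 h to 10.2 in Ctrl mice at 7 d. C1qb and C1qc had the groups in this same order. For all 5 genes the ranges of neighbours in the order overlapped in 7 of 7 cases, and the gap between neighbours was under 1 SD in 6 of 7 cases, or 5 of 7 for C1qb. The widest gaps between neighbours lay between 1.14 and 1.28 SD, and for the C1q genes and C3ar1 each parted CIE mice at 8 h from the next group. Over the 8 groups the means of Serping1 spanned 1.26 log2 units, against 0.514 for C3ar1 and 0.7 for C1qa.

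Mice of 1 group also differed from each other in a shared way. After the group means were subtracted, C1qa and C1qc correlated across the 48 mice with r = 0.918 (Spearman 0.916), C1qb and C1qc with r = 0.877 (0.854) and C1qa and C1qb with r = 0.874 (0.885). Without the 2 mice farthest from the median these were 0.907, 0.861 and 0.853, and with the hybridization sets removed as well they were 0.923, 0.911 and 0.895. The points share arrays, tissue dissection and normalization, so these are descriptions. All 3 C1q genes had their highest value in the same mouse in 3 of 8 groups and their lowest in the same mouse in 4 of 8.

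C3ar1 and Serping1 did not share this pattern. C3ar1 correlated with the C1q genes at r = 0.296 to 0.37, and Serping1 did so at r = 0.0374 to 0.137. The probe set of C4a and C4b correlated with C3ar1 at r = 0.507, with Serping1 at r = 0.436 and with the C1q genes at r = 0.344 to 0.397. Thus the C1 inhibitor and the C1q chains, whose group means were all highest in CIE mice at 8 h, were nearly unrelated from mouse to mouse within a group.

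**Figure D4:**
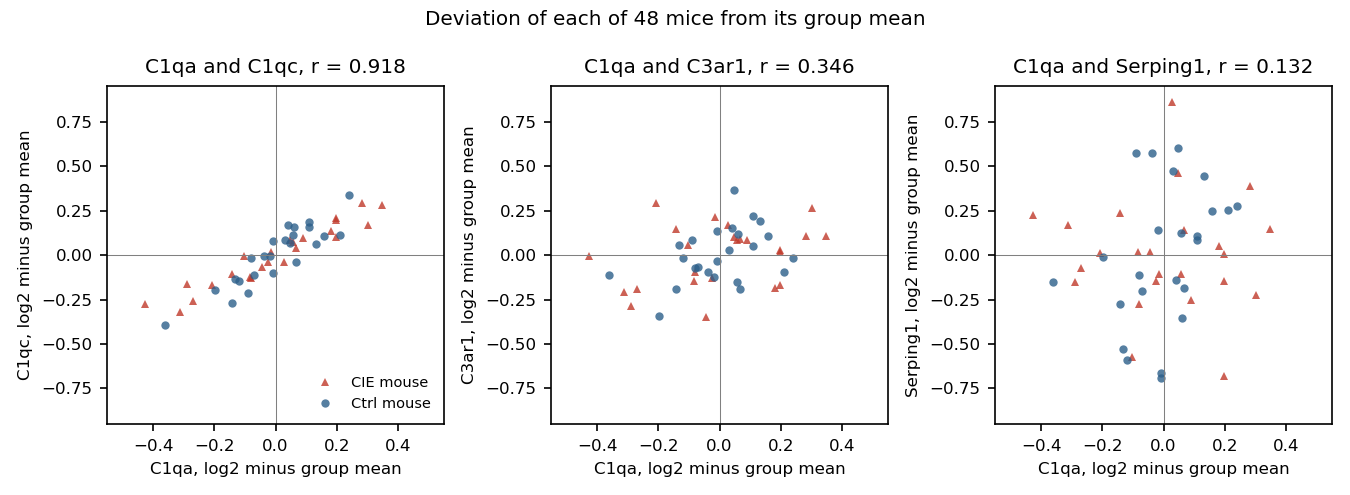
Log2 expression minus the group mean for each of 48 mice (triangles CIE, circles Ctrl), C1qa on the horizontal axis against C1qc, C3ar1 or Serping1 on the vertical axis. C1qc follows C1qa closely (r = 0.918), C3ar1 loosely (r = 0.346), and Serping1 hardly at all (r = 0.132).

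The genes most like each member were found by the same correlation over all 18193 genes. For C1qa they were C1qc, C1qb and Trem2 (r = 0.791), the last a microglial surface receptor. The third gene for both C1qb (r = 0.796) and C1qc (r = 0.779) was Ly86, a myeloid cell surface protein. For C3ar1 the highest values were lower, with Ifngr1, a chain of the interferon gamma receptor, at r = 0.622, Adh4 at 0.609 and Akr7a5 at 0.608. How high the largest r among so many genes would run by chance was not worked out. Serping1 was most like Cyp1b1 (r = 0.878), Fbxw11 (r = 0.799) and Itih2 (r = 0.774). The C4a and C4b probe set was most like AW112010 (r = 0.781), Trim21 (r = 0.779) and Parp3 (r = 0.774). This likeness held between mice within groups and did not always hold over the 8 group means. There r was -0.145 for Trem2 with C1qa, -0.31 for Akr7a5 with C3ar1 and 0.208 for Fbxw11 with Serping1. The other named pairs had r from 0.376 to 0.991 over the group means.

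Marker lists of other cell types were read beside these values. Of 17 microglial markers, 2 rose and 1 fell at 8 h, against 2.29% of all genes called in either direction. Their median change was 0.0458, against 0.42 for the complement genes and 0.00569 over all genes. Ctss (0.49, adjusted p of 9.99e-05), a lysosomal protease, and Cd68 (0.44, adjusted p of 0.00718), a lysosomal membrane protein, rose, and Fcrls, a microglial receptor, fell by 0.78 (adjusted p of 1.63e-05). The summed linear signal of the list ran from 19520 to 23860 in CIE mice at 8 h, against 18140 to 22500 in Ctrl mice. At 0 h 1 of 17 rose (Ctss, 0.38, adjusted p of 0.00325) and 1 fell (Fcrls, -0.86, adjusted p of 7.79e-06), against 1.64% of all genes called. At 72 h 3 of 17 markers had a positive change, and 0 were called. At 7 d 16 of 17 had a positive change, with a median of 0.279 (0.0276 over all genes), and 13 had an unadjusted p under 0.05 by limma. Called at 7 d were 2 of 17, Tmem119 (0.40, adjusted p of 0.00728) and Olfml3 (0.45, adjusted p of 0.00297), against 1.03% of all genes. The list mean correlated within groups with C1qb at r = 0.731, with C1qa at 0.668, with C1qc at 0.604, with C3ar1 at 0.447 and with Serping1 at 0.0387. The part of microglial number or state in the C1q and C3ar1 values was not tested.

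Among the marker lists, Serping1 had its highest correlations with those of the tissue's borders. Within groups it correlated with the mean of 6 border macrophage markers at r = 0.731 and with that of 10 meningeal fibroblast markers at r = 0.698. Lower values were found with hippocampal neuron (0.523), endothelial (0.501), choroid plexus (0.43) and astrocyte (0.421) markers. At 7 d, when Serping1 was most spread out, 10 of 10 markers of the fibroblast list had a positive CIE change, with a median of 0.582 (0.0276 over all genes). Limma called 0 of them, against 1.03% of all genes, and 7 had an unadjusted p under 0.05. Their summed signal ran from 3185 to 6845 in CIE mice, against 2920 to 4035 in Ctrl mice. The brightest of them, Pdgfra (means of 10.49 in CIE mice and 10.3 in Ctrl mice), is not particular to fibroblasts. Positive changes at 7 d were not particular to fibroblast markers. They were found in 10 of 10 astrocyte markers (median 0.185), 8 of 8 endothelial (0.193) and 5 of 6 border macrophage markers (0.334). Positive were also 6 of 9 choroid plexus, 8 of 10 neuronal and 5 of 8 blood markers, but 0 of 6 oligodendrocyte markers. Of the choroid plexus markers, 1 was called at 7 d, Kl (1.05, adjusted p of 0.00385), against 1.03% of all genes, and Ttr differed by 2.12 (adjusted p of 0.0263). The choroid plexus sums had a median of 1101 in Ctrl mice at 7 d, against 2568 in Ctrl mice at 0 h and 2846 in CIE mice at 7 d. For fibroblast sums these medians were 3447, 3942 and 4206. At 8 h the fibroblast median was 0.0116 (0.00569 over all genes), and the sums were 3138 to 4961 in CIE mice, against 3839 to 4320 in Ctrl mice. The border macrophage sums at 8 h were 388.8 to 501.4 in CIE mice, against 300.3 to 453.5 in Ctrl mice. At 8 h 1 of these 6 markers, F13a1, rose (0.68, adjusted p of 0.00151), against 2.29% of all genes called in either direction. The part of attached border tissue in the Serping1 values was not tested.

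Interferon-stimulated genes were read in the same way. Of 16 measured, 9 rose at 8 h and 1 at 0 h, against 2.29% and 1.64% of all genes called in either direction. Limma called 0 at 72 h or 7 d (0.0055% and 1.03% of all genes), where 0 and 8 had an unadjusted p under 0.05. The median changes of the 16 genes in time order were 0.741, 0.875, -0.00581 and 0.381. Over all genes they were 0.0407, 0.00569, 0.0133 and 0.0276. Their summed signal was 8206 to 13530 in CIE mice at 8 h, against 3044 to 10740 in Ctrl mice. Within groups the list mean correlated most with the C4a and C4b probe set (r = 0.661) and less with Serping1 (r = 0.522), C1qc (r = 0.466), C1qb (r = 0.415), C1qa (r = 0.35) and C3ar1 (r = 0.229).

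**Figure D5:**
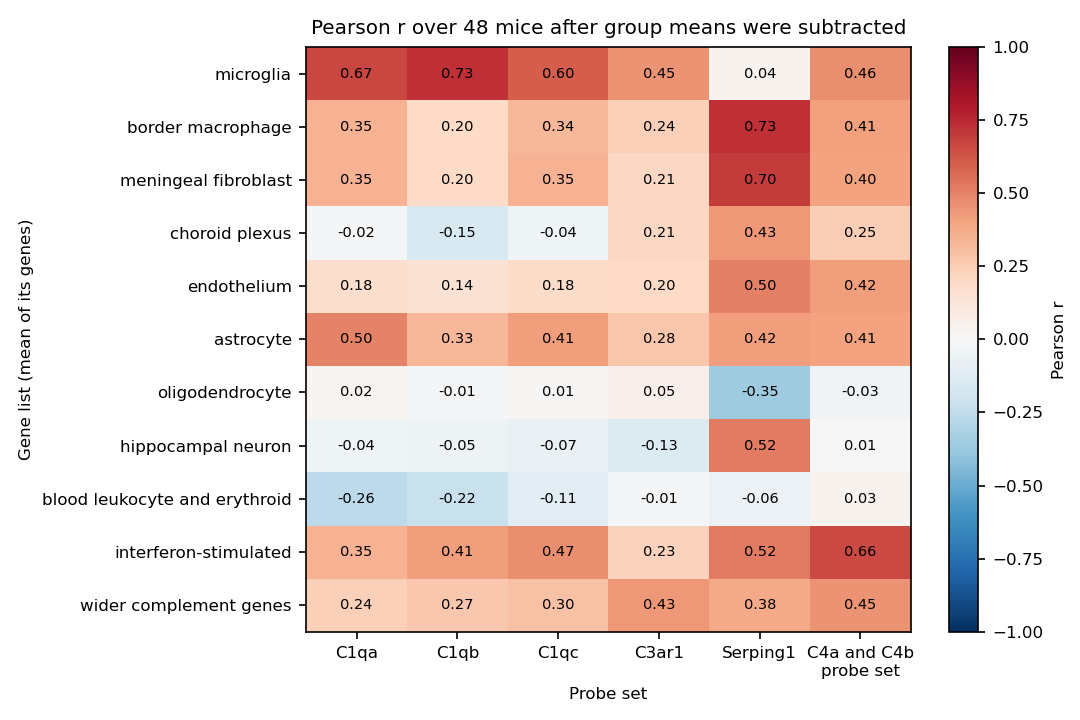
Pearson r over 48 mice, after group means were subtracted, between each complement probe set (columns) and the mean of each marker list (rows), coloured from -1 to 1. The C1q genes are highest with microglia, Serping1 with border macrophages (0.73) and meningeal fibroblasts (0.70), and the C4a and C4b probe set with interferon-stimulated genes (0.66).

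The rest of the pathway was read from a list of 52 complement symbols, older names included, of which 38 genes were measured. At 8 h 1 of 38 rose and 0 fell, against 2.29% of all genes called in either direction, and at the other times limma called 0 of 38 (with unadjusted p under 0.05 in 9 at 0 h, 1 at 72 h and 8 at 7 d). The median change at 8 h was 0.0349, and 23 of 38 were positive. Averaged over times 2 of 38 were called, against 7.9% of all genes, and the F called 3 of 38, against 6.23%. These counts lay near or below those over all genes. Many of the 38 genes were dim, with CIE means at 8 h such as 4.188 for C9, 4.07 for Hc and 4.456 for C5ar1. Such values lie below 6.62, the median of all probe set means, and changes in dim genes may go undetected.

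The gene that rose was Itgb2, the beta chain of the integrins that serve as complement receptors on myeloid cells. At 8 h Itgb2 measured 7.426, 7.61 and 7.709 in CIE mice (lowest, median, highest), against 6.751, 6.995 and 7.643 in Ctrl mice. CIE mice were high, and 1 Ctrl mouse reached into their range. The rise was 0.52 ± 0.0977, or 1.43-fold, with an adjusted p of 0.000574. At 0 h all 6 CIE mice, 7.094 to 7.221, lay above all 6 Ctrl mice, 6.56 to 6.986, a separation that 1.28% of all genes had at 0 h, although the change of 0.35 had an adjusted p of 0.0227. It was 0.41 at 7 d (adjusted p of 0.0103) and -0.02 at 72 h (adjusted p of 0.976). The alpha chain gene Itgam, its partner in complement receptor 3, differed by -0.13 at 8 h (adjusted p of 0.6). Itgam was dim, with means at 8 h of 5.996 in CIE mice and 6.124 in Ctrl mice, below 6.62.

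Next to C1q in the cascade stands C1ra, which encodes a C1r protease. C1ra differed by 0.43 ± 0.109 at 8 h (adjusted p of 0.0123), with 5.525, 5.577 and 5.923 in CIE mice, against 4.947, 5.262 and 5.657 in Ctrl mice, and was called on average (0.27, adjusted p of 0.000306) and by the F (adjusted p of 0.00231). The other C1 protease gene measured, C1s1, differed by 0.07 at 8 h (adjusted p of 0.716). C1s1 averaged 4.375 in CIE mice and 4.304 in Ctrl mice at 8 h, and both C1ra and C1s1 lay below 6.62. Masp1, a protease of the lectin pathway, differed most at 7 d, by 0.87 ± 0.237 (adjusted p of 0.0224), with 6.822, 7.191 and 7.88 in CIE mice, against 5.761, 6.284 and 7.31 in Ctrl mice.

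Regulators and C1q-binding proteins had differences of both signs, and none passed the threshold at a single time. Cfp, properdin, the stabiliser of the alternative pathway convertase, differed by -0.31 ± 0.0919 at 0 h (adjusted p of 0.0319), with 9.101, 9.158 and 9.291 in CIE mice, against 9.164, 9.476 and 9.763 in Ctrl mice, and by -0.28 at 8 h (adjusted p of 0.0676). The F called Cfp with an adjusted p of 0.00773. C1qbp, a mainly mitochondrial protein that binds C1q, lay between 12.61 and 12.73 in CIE mice at 8 h, against 12.8 and 12.95 in Ctrl mice. These groups did not overlap, as held for 1.74% of all genes in this direction at 8 h, and the change was -0.17 ± 0.0453 with an adjusted p of 0.0171. Cr1l, a membrane regulator of C3 convertases in rodents, differed by 0.18 at 0 h (adjusted p of 0.0508), and Vtn, a fluid-phase inhibitor of the terminal complex, by 0.33 at 7 d (adjusted p of 0.0654).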

How the data were processed

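The deposited values are log2 expression values that the authors made with RMA from Affymetrix Mouse Genome 430 2.0 arrays. By the study's methods, arrays were background corrected and quantile normalized within a hybridization batch, quantile normalized again together, and corrected for batch with ComBat, which can shrink or shift differences between mice. For the authors' tools, no version is given in the sources used here. Values were used as deposited. Of 45037 probe sets, 34945 had 1 gene symbol, 932 several and 9160 none in the platform annotation, and 0 symbols changed on comparison with RefSeq.

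All 48 arrays entered 1 linear model (limma 3.58.1 under R 4.3.3) of the group means, and tests were two-sided with Benjamini-Hochberg adjustment over all probe sets. Errors after changes are standard errors. P-values and standard errors rest on 1 spread per probe set, pooled over the 8 groups of 6 mice and moderated across probe sets. They do not measure the spread of the compared groups alone, and the number of arrays limits the precision. Since no label gives the batch, hybridization sets were built by joining arrays with 5 or more identical values (tolerance 1e-08).

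The members and lists were chosen with earlier results of these data known. Named were the members and all their probe sets, complement genes called at any time with up to 6 more of the smallest F p, and the 3 genes most like each member. Itgam, C1s1, the dim genes C9, Hc and C5ar1, and single marker genes fall outside this rule, having been chosen once their values were known. Alternatives were a fit of each time alone, the sets as a block, a filter on dim probe sets, trended and robust variances, renewed quantile normalization, other probe sets, a threshold of 0.05, and leaving out each mouse.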

Additional observations from a re-analysis of the deposited data

Results flagged for a closer look

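Among 48 groups of 6 mice, 8 for each of the 5 genes and the C4a and C4b probe set, 2 held a mouse whose distance to the others was large for the range of its group, as chance gives in about 1 of 20 groups. For C1qb, Ctrl mouse 6 at 72 h had 9.909, while the other 5 mice of its group had 10.27 to 10.41. For C3ar1, CIE mouse 27 at 7 d had 6, while the other 5 had 6.342 to 6.519.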

How the results depend on the processing

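No replicate number was shared between groups, so CIE and Ctrl mice were paired through the hybridization sets alone. With the arrays of 8 h alone, 0 members were called at 8 h (C3ar1 adjusted p of 0.0139), while blocking on hybridization sets gave 0 called at 8 h, 1 on average and 1 by the moderated F. A threshold of 0.05 called 2 at 8 h. Without dim probe sets 1 was called at 8 h, but it was C1qa (adjusted p of 0.00747), since C3ar1 was left out. Leaving out single mice gave 0 to 2 members called at 8 h, 1 to 2 on average and 1 to 3 by the F, and 0 at 0 h, 72 h and 7 d. The fits without single mice for the average, the F and the Ctrl times, and every fit of the C4a and C4b probe set, were chosen after seeing the data. Trended and robust variances and renewed quantile normalization changed no call in 84 results each. The cause of these changes was not tested.

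Of 1374 alternative values of single probe sets, 1316 kept their direction and side of the threshold, 47 lost a call and 5 gained one. The other 6 changed sign without being called in either fit. In fits without single mice, the change of C3ar1 in Ctrl mice against 0 h ran from -0.0104 to 0.1009 at 8 h, from -0.0154 to 0.09183 at 72 h and from -0.0185 to 0.08844 at 7 d, with -0.00603 at 8 h without Ctrl mouse 56. The change of Serping1 at 72 h ran from -0.00824 to 0.08894 in such fits, and a further probe set of C3ar1 differed by -0.02 at 72 h. Counts of molecules cannot be had from arrays, and the number of mice limits what was detectable.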
